A study of Mus musculus with 367 samples.

Results

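The bone morphogenetic protein (BMP) genes followed here were 10 of the 50600 genes in the deposited tables: the receptor genes Bmpr1a, Bmpr2 and Acvr1, the ligand Bmp4, the secreted antagonists or modulators Grem1, Nbl1 and Fstl1, and the inhibitor-of-differentiation genes Id1, Id2 and Id3. They were taken by name. Their levels were read in 7 C1 captures of single cells from mouse skin wounds, 3 at post-wounding day (PWD) 12 and 2 each at days 15 and 21. All mice were Sm22-Cre;tdTomato on a mixed background and, by the sample labels, 3 to 8 weeks old at wounding. They received a square full-skin excision of 1.5 cm a side on the back. The study's methods give a narrower age range for wounded mice, with the same upper limit, and state that both sexes were used. No group without a wound or without Cre was compared. Sm22 is another name for Tagln, so its promoter drives Cre mainly in smooth muscle and contractile fibroblast lineages, and tdTomato stays on in every descendant of a cell that once had Cre. Viable tdTomato-high cells were sorted, and wound tissue of 2 to 3 animals was pooled per time point. Whether captures of 1 day hold different mice is not stated, so the spread between captures may be technical.

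BMP ligands bind pairs of serine/threonine kinase receptors, a type I receptor (such as the products of Bmpr1a and Acvr1) and a type II receptor (such as that of Bmpr2). The active receptors phosphorylate Smad1, Smad5 and Smad9, which enter the nucleus with Smad4 and switch on targets, of which the Id genes are the best known. Id proteins lack a DNA-binding part and hold back basic helix-loop-helix factors such as those of Tcf3, Tcf4 and Tcf12. In skin, BMP signalling is known for its part in the hair cycle and in the adipocyte fate of dermal cells.

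Expression is given in fragments per kilobase of transcript and scaled to each cell's total (FPKM), so levels of different genes can be compared per length. Of 367 cells, 292 passed the filters on depth, genes and mitochondrial RNA, with capture medians of 957604 to 2356565 estimated fragments and 4845 to 6233 genes per cell. Cells were sorted into 3 kinds by fixed FPKM limits on 3 other genes. Matrix cells had Col1a1 of at least 1000, Rgs5 under 100 and Tyrobp under 50, mural cells had Rgs5 of at least 500 and Tyrobp under 50, and myeloid cells had Tyrobp of at least 500. This gave 198 matrix, 57 mural and 26 myeloid cells, with 11 cells in no kind. A capture entered a comparison of kinds with at least 3 cells of that kind, which all 7 captures had for matrix, 5 for mural and 4 for myeloid. Few cells lay near a limit: 6 cells were within 2 times above the Col1a1 limit of matrix and 15 within 2 times below it, 3 above and 1 below the Rgs5 limit of mural, and 0 on either side of both Tyrobp limits.

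The kinds were checked against markers that the limits did not use, and cells of mixed content are counted beside them. The summed FPKM of 7 other matrix markers, among them Col1a2, Dcn and Pdgfra, was 20010 to 35440 in the captures' matrix cells, 5048 to 14200 in mural cells and 75.7 to 11170 in myeloid cells, of which 17 of 26 had at least 10. That of 8 mural markers, among them Notch3, Kcnj8 and Abcc9, was 1765 to 2641 in mural cells against 1.21 to 62.4 in matrix cells. That of 9 myeloid markers, among them C1qa, Cd68 and Ptprc, was 21930 to 33130 in myeloid cells and at most 95.4 in the other kinds. Endothelial markers (6 genes) summed to at least 10 FPKM in 6 of 57 mural, 2 of 198 matrix and 0 of 26 myeloid cells, and T cell markers (2 genes) in 0 cells. Keratinocyte markers (5 genes) did so in 25 of 198 matrix, 5 of 57 mural and 1 of 26 myeloid cells, and Schwann cell markers (3 genes) in 5, 2 and 0. Col1a1 was at least 1000 in 4 of 26 myeloid cells and 19 of 57 mural cells. The median number of genes per cell was 5808 in matrix, 5181 in mural and 4962 in myeloid cells. An FPKM of exactly 0 is reported as listed at 0, since Gapdh was also listed at 0 in 25 of 292 cells and Hprt in 127, while Actb was listed at 0 in none. Tagln itself, the gene of the Cre promoter, was listed above 0 in 128 of 198 matrix, 50 of 57 mural and 3 of 26 myeloid cells, and the 3 were among the 4 myeloid cells with high Col1a1.

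All 10 genes were expressed enough to be tested. Fstl1 was at 10481 to 16609 FPKM in the matrix cells of the captures and was lower in myeloid cells. Grem1 was low in matrix cells and listed at 0 in all 26 myeloid cells. Id2 was highest in myeloid cells, at 403 to 1024 FPKM per capture, and Id3 was at 283 to 1161 FPKM in mural cells of 4 of 5 captures but at 25.0 in the other. No gene of the 10 passed the test between days within matrix or mural cells. For myeloid against matrix cells 6 of the 10 passed, where 15.7% of all 14022 genes tested did. Of the 6, 5 were lower in myeloid cells (12.6% of all genes) and 1 was higher (3.05%). For myeloid against mural cells 2 of the 10 passed (6.55% of all genes), 1 lower (4.43%) and 1 higher (2.12%). For mural against matrix cells 0 of the 10 passed (1.05% of all genes, 0.713% higher and 0.335% lower), with 2 at an unadjusted p under 0.05. The median difference of the 10 was -2.82, -1.56 and -0.94 in these 3 comparisons, beside -0.85, -0.58 and -0.25 over all genes. The first 2 of these medians count Bmp4 and Grem1, which were listed at 0 in all myeloid cells. The test was limma on log2(mean FPKM + 1) per capture and kind with the capture as a block, and a gene passed at a Benjamini-Hochberg adjusted p under 0.05 over all genes.

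**Figure D1:**
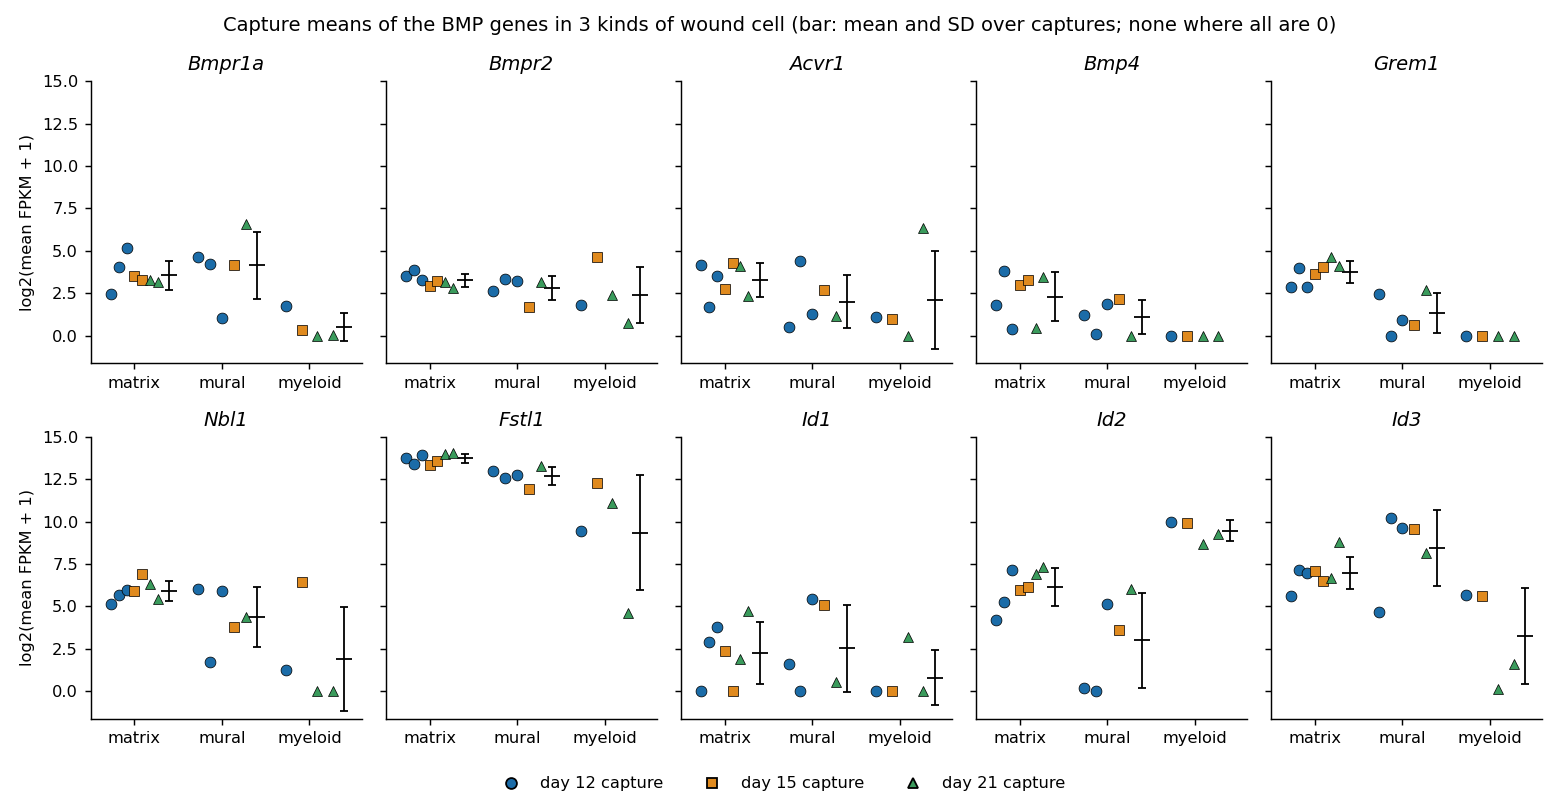
Each symbol is the mean of the cells of a kind in 1 capture, on the scale log2(mean FPKM + 1), with colour and shape for the day, and the bar gives the mean and SD over captures. Fstl1 sits near 14 in matrix cells, Id2 is highest in the 4 myeloid captures, and 1 day 12 capture of mural cells stands far below the other 4 for Id3.

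Within each kind the order of levels is a description. In matrix cells Fstl1 stood above all others, with 13702 ± 2602.9 FPKM (mean ± SD of 7 capture means). It was followed by Id3 (154 ± 129), Id2 (86.9 ± 54.6) and Nbl1 (64.0 ± 28.6), which overlapped within their spread on the log2 scale. Grem1 (13.6 ± 6.17), Bmpr1a (13.03 ± 10.1), Acvr1 (10.7 ± 6.81), Bmpr2 (8.89 ± 2.66), Id1 (7.52 ± 9.29) and Bmp4 (6.03 ± 5.08) formed a lower set in which no neighbour on the log2 scale differed by more than the larger of their SDs. In mural cells Fstl1 and then Id3 led, each above the next gene by more than that SD, while no neighbours among the other 8 did. In myeloid cells Id2 and Fstl1 led, and Fstl1 stood above Id3 by more than that SD in spite of its own wide spread, while no other neighbours separated.

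How often a gene was listed above 0 did not always follow its level. Bmpr2 was listed in 166 of 198 matrix cells at a median of 3.70 FPKM where listed, whereas Id3 was listed in 118 of them at a median of 161. The longest annotated transcript of Bmpr2 has 12899 bases and that of Id3 1278 bases, so a given FPKM stands for many more fragments of Bmpr2. Of the 30 pairs of a gene and a kind, 13 were listed in at least 50% of the cells, and 10 if only values of at least 1 FPKM counted. Depth could not be thinned to a common number, because the tables hold no counts.

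**Figure D2:**
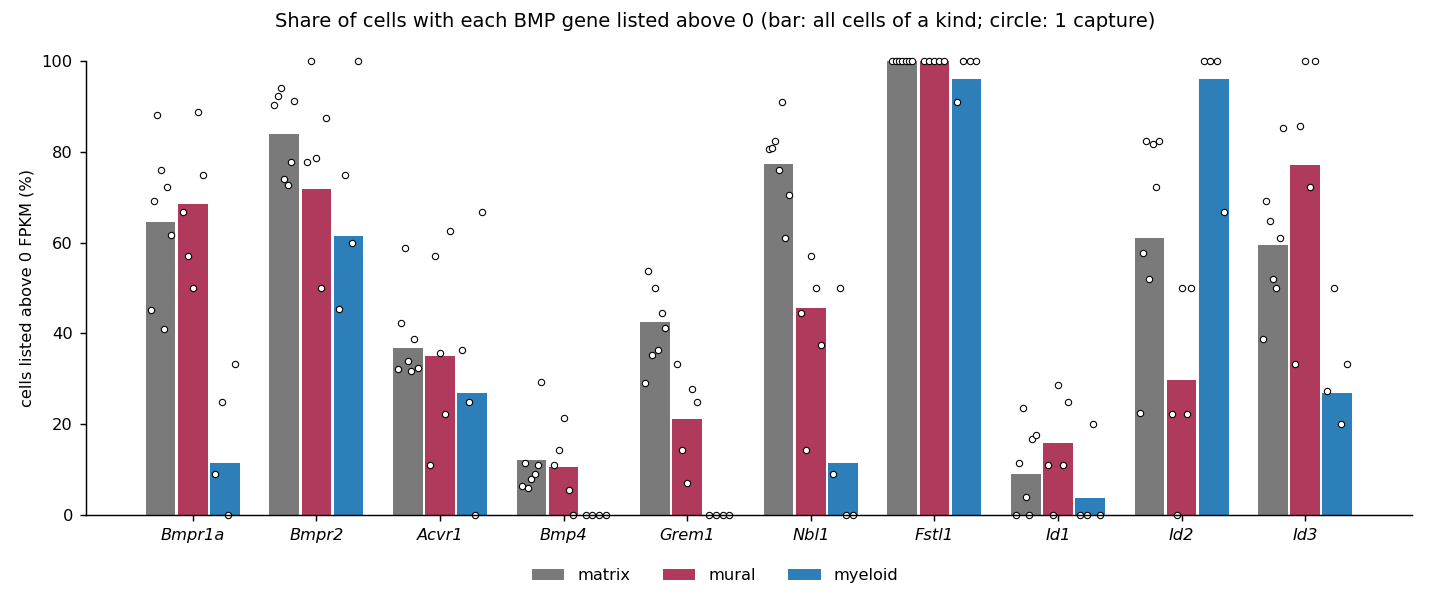
Bars give the percentage of all cells of a kind in which each gene was listed above 0 FPKM, and circles give the captures with at least 3 such cells. Fstl1 was listed in 96.2% to 100% of cells in every kind, Id2 in 96.2% of myeloid cells, and Bmp4 and Grem1 in no myeloid cell.

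Positions are given on mm10. Bmpr1a lies on chromosome 14 (34410734 to 34503341, minus strand), Bmpr2 on chromosome 1 (59763400 to 59879014, plus), and Acvr1 on chromosome 2 (58388644 to 58567157, minus). Bmp4 lies on chromosome 14 (46383520 to 46390669, minus), Grem1 on chromosome 2 (113746164 to 113758646, minus), Nbl1 on chromosome 4 (139082284 to 139092993, minus) and Fstl1 on chromosome 16 (37776873 to 37836514, plus). Id1 lies on chromosome 2 (152736251 to 152737410, plus), Id2 on chromosome 12 (25093799 to 25097140, minus) and Id3 on chromosome 4 (136143497 to 136145755, plus). Bmpr1a, Bmpr2, Acvr1 and Bmp4 overlap 5 other annotated genes, each with a mean of at most 0.948 FPKM over the capture means. Use of strand in the counting is not stated, so reads in those overlaps cannot be assigned to a strand.

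Stretches of 250 bases before a RefSeq transcript start (GRCm38.p6) were available for 9 of the 10 genes, all but Id1. A RefSeq start can lie inside the gene as GENCODE annotates it, and 7 of the 9 stretches held bases of GENCODE exons. These were 250 of 250 bases for Bmpr2, Acvr1 and Id3, 182 for Fstl1, 161 for Id2, 141 for Bmpr1a and 23 for Nbl1, while Bmp4 and Grem1 had 0. In these stretches, a GC box that Smad1 and Smad5 are known to bind (GGCGCC, which reads the same on both strands) occurred in 5 of the 9 genes and in 9.59% of all 32851 promoters. The shorter Smad-binding element GTCT, on either strand, occurred in 7 of the 9 and in 82.9% of all promoters. The 9 stretches had 62.8% to 85.6% G and C and all promoters a median of 52.4%. The 5 boxes are shown in capitals with their flanks, because the set holds Id2 and the antagonists Grem1 and Nbl1, which differed between kinds in different directions, but not Id3. They lie at chr12:25096306-25096335 (Id2, minus strand), chr2:113758709-113758738 (Grem1, minus), chr4:139093132-139093161 (Nbl1, minus), chr14:34502727-34502756 (Bmpr1a, minus) and chr1:59764162-59764191 (Bmpr2, plus), and each reads 5′ to 3′ along its gene. The boxes of Id2, Bmpr1a and Bmpr2 lie inside the gene positions given above, and those of Grem1 and Nbl1 outside them.
Id2: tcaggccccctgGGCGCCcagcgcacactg
Grem1: cgcggcggcgacGGCGCCtgaccaatggag
Nbl1: gcccatggctcgGGCGCCcctgctcacgag
Bmpr1a: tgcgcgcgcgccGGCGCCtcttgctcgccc
Bmpr2: ctccggcggccgGGCGCCgctgcctgcccc
A match of letters is a description and not a site.

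Receptors were low in every kind. Bmpr1a, a type I receptor, had capture means in matrix cells of 4.51, 15.8 and 34.7 FPKM at day 12, 10.3 and 8.85 at day 15 and 8.88 and 8.18 at day 21. In mural cells they were 24.4, 18.1 and 1.10 at day 12, 16.8 in day 15 capture 1 and 94.7 in day 21 capture 1, where 1 cell reached 720 FPKM. The matrix and mural ranges overlapped. In myeloid cells Bmpr1a was at 2.39 in day 12 capture 2, 0.285 in day 15 capture 2, and 0 and 0.0267 at day 21, below the matrix cells of the same capture in 4 of 4. It was listed in 3 of 26 myeloid cells against 128 of 198 matrix and 39 of 57 mural cells. Of these 3 myeloid cells, 2 were among the 4 with Col1a1 of at least 1000 FPKM, with Bmpr1a at up to 26.3. In the other 22 it was listed in 1, at 0.08. The myeloid minus matrix difference was -3.26 ± 1.00 on the log2 scale (SE, limma adjusted p = 0.040). This call was lost in 5 of the 7 fits that left out a capture, with adjusted p = 0.0757 without day 12 capture 2, 0.0555 without day 15 capture 1, 0.0771 without day 15 capture 2, 0.114 without day 21 capture 1 and 0.0932 without day 21 capture 2.

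Bmpr2, the type II receptor, did not pass between kinds. Its capture means in matrix cells ran from 5.92 to 13.9 FPKM, in mural cells from 2.20 to 9.05 and in myeloid cells from 0.69 to 23.9. It was listed in 83.8% of matrix, 71.9% of mural and 61.5% of myeloid cells. The differences were -0.42 ± 0.67 for mural and -0.99 ± 0.74 for myeloid against matrix cells (SE, limma adjusted p = 0.895 and 0.385). Without the 4 myeloid cells high in Col1a1, a subset chosen after seeing the data, the second was -2.46 ± 0.73 and passed (adjusted p = 0.0389, where 17.6% of all genes did). Acvr1, a further type I receptor, was listed in 36.9%, 35.1% and 26.9% of the 3 kinds. Its capture means were 2.29 to 18.5 FPKM in matrix and 0.413 to 20.4 in mural cells. In myeloid cells 3 captures were at 0 to 1.15 and day 21 capture 2 was at 80.9, from 2 of its 3 cells, 1 of them at 242. Its differences from matrix cells had adjusted p of 0.841 (mural) and 0.442 (myeloid).

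Bmpr2 together with Bmpr1a or Acvr1 was listed in 126 of 198 matrix cells, 36 of 57 mural cells and 4 of 26 myeloid cells. These counts leave out other receptor genes, such as Acvr2b, and a gene listed at 0 can still be expressed. Which cells can answer a BMP was not tested. Among the other receptor and co-receptor genes of a fixed list of 53 further BMP pathway genes, Acvr2b and Eng had the highest means. Acvr2b, a type II receptor, reached 244 FPKM in mural cells of day 21 capture 1 from 1 cell at 1954.5 and was at 0 to 2.74 in the other 4 mural captures. Eng, a co-receptor best known in endothelium, was listed in 43 of 198 matrix and 19 of 57 mural cells. Of the 8 receptor genes listed, all were tested between kinds and 1, Neo1, passed, at 10.3 ± 4.18 FPKM in matrix (SD, 7 captures) and 0 to 0.187 in myeloid captures (myeloid minus matrix -3.27 ± 0.67, SE, limma adjusted p = 0.00625). Neo1 reached the average of 1 FPKM needed for the fit only through matrix cells, so this call has no weight as a test.

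Bmp4, the ligand, was rare. It was listed in 24 of 198 matrix cells, at a median of 10.8 FPKM where listed and up to 242. Matrix capture means were 2.47, 13.2 and 0.298 FPKM at day 12, 6.87 and 8.81 at day 15 and 0.371 and 10.2 at day 21. The day 12 captures ranged from 0.298 to 13.2, the whole range of the 7. Day 21 capture 2 held 10 of the 24 cells. In mural cells it was listed in 6 of 57, and 5 of these 6 were among the 19 mural cells with Col1a1 of at least 1000. It was listed in 0 of 26 myeloid cells, which bounds the share of cells with a listed value at 11.5% (3 of 26, for counting error only) and not the share of cells that express it. Its differences from matrix cells did not pass (adjusted p = 0.654 for mural, 0.0608 for myeloid cells). Of 9 other ligand genes 5 were expressed enough to be tested. Bmp1, a protease and no BMP in the strict sense, was the most abundant at 90.2 ± 32.4 FPKM in matrix cells and lower in myeloid cells, at 0 to 19.5 (-3.48 ± 0.77, SE, limma adjusted p = 0.0094). Bmp3 had 0.165 to 42.1 FPKM in the matrix captures and was listed at 0 in all myeloid cells.

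Fstl1, a secreted glycoprotein that can bind BMP4, was the most abundant of the 10 in matrix and mural cells. Matrix capture means were 13953, 10677 and 15606 FPKM at day 12, 10481 and 12257 at day 15, and 16328 and 16609 at day 21. In mural cells they were 8014, 6071 and 6745 at day 12, 3810 at day 15 and 9996 at day 21, below the matrix cells of the same capture in 5 of 5 by 0.71 to 1.46 on the log2 scale. The 2 ranges did not overlap, but the fitted difference of -1.20 ± 0.72 did not pass (SE, limma adjusted p = 0.554). All 3 kinds were fitted together, so this SE also takes in the spread of the myeloid captures. On the log2 scale the SD of the Fstl1 capture means was 0.28 in matrix, 0.52 in mural and 3.37 in myeloid cells. Myeloid captures ranged from 23.2 to 4893 FPKM, all below the matrix cells of their capture, with a difference of -4.38 ± 0.79 (SE, limma adjusted p = 0.00336) that held in all 7 fits that left out a capture.

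The myeloid Fstl1 came almost wholly from 4 cells. These had Col1a1 of 2047 to 10810 FPKM and Fstl1 of 3068 to 16450, while the other 22 myeloid cells had Col1a1 of at most 341 and Fstl1 of at most 67.4. Tyrobp was 1343 to 2708 in the 4 cells and 2354 to 8317 in the 22. The part of RNA from matrix cells in these 4 was not tested. Without them 3 captures had myeloid cells enough for the fit, and the myeloid minus mural difference of Fstl1 was -9.11 ± 0.30 (SE, limma adjusted p = 5.1e-08), against -3.19 ± 0.92 with them (adjusted p = 0.0551). Bmpr1a and Nbl1 also passed against mural cells in that fit, which was chosen after seeing the data (adjusted p = 0.040 and 0.0305, with 10.6% of all genes past the threshold). Among fits that did not select myeloid cells by Col1a1, Fstl1 passed against mural cells with means of log2 values (limma adjusted p = 4.25e-06) and without the capture block (0.0159). It also did so in 2 of the 7 fits that left out a capture, those without day 15 capture 2 (0.0175) and day 21 capture 2 (0.00622). It did not pass with a pseudocount of 10, with cells scaled to the same total or with stricter kind limits.

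**Figure D3:**
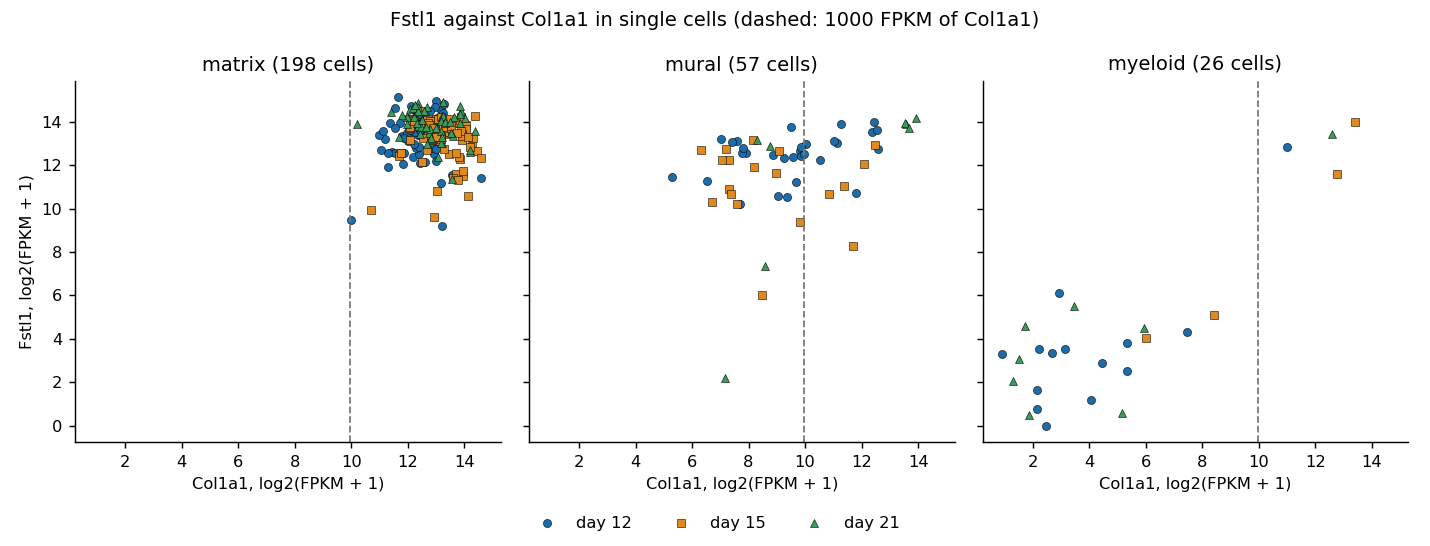
Each point is a cell, with Col1a1 on the horizontal and Fstl1 on the vertical axis as log2(FPKM + 1), and the dashed line marks 1000 FPKM of Col1a1. In the myeloid panel 4 cells lie to the right of the line at the Fstl1 level of matrix cells and 22 lie far below them.

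Nbl1, a secreted BMP antagonist of the DAN family, was listed in 153 of 198 matrix, 26 of 57 mural and 3 of 26 myeloid cells. Matrix capture means were 34.7, 50.3 and 62.0 FPKM at day 12, 59.4 and 120 at day 15 and 78.4 and 43.0 at day 21. The mural captures ran from 2.38 to 63.6 and overlapped them. In myeloid cells Nbl1 was at 1.38 in day 12 capture 2, at 84.8 in day 15 capture 2 and listed at 0 in both day 21 captures. All 3 myeloid cells with Nbl1 were among the 4 with high Col1a1. The myeloid minus matrix difference was -3.87 ± 0.98 (SE, limma adjusted p = 0.0182), and it was lost without day 21 capture 1 (0.104) or day 21 capture 2 (0.0682).

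Grem1, another DAN-family antagonist, was listed in 84 of 198 matrix, 12 of 57 mural and 0 of 26 myeloid cells. Matrix capture means were 6.46, 15.0 and 6.43 FPKM at day 12, 11.6 and 15.9 at day 15 and 23.995 and 16.1 at day 21. Mural captures were at 4.59, 0.00571 and 0.903 at day 12, 0.557 at day 15 and 5.62 at day 21, below the matrix cells of the same capture in 5 of 5. Myeloid cells were listed at 0 in each of the 4 captures, which again bounds only how often a value is listed. Myeloid against matrix cells passed with adjusted p = 0.00288 (limma), the size of the difference depending on the pseudocount of 1. This call was lost with means of log2 values. Mural against matrix cells had -2.27 ± 0.64 (SE, limma adjusted p = 0.131), which passed with stricter limits on the kinds (-2.88, 0.0281) and without the capture block (-2.40, 0.0384).

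Mural cells with little collagen RNA differed further from matrix cells. In the 38 mural cells with Col1a1 under 1000 FPKM, Grem1 was listed in 5, Nbl1 in 12 and Id2 in 7, and in the 19 with more Col1a1 in 7, 14 and 10. With the 38 alone, in the same 5 captures, Grem1 (-3.55 ± 0.60, adjusted p = 0.00348), Nbl1 (-4.06 ± 0.99, 0.0277) and Id2 (-4.27 ± 0.76, 0.00471) passed against matrix cells (SE, limma), which is 3 of the 10 where 5.68% of all genes passed. Grem1 had a mean of 0.112 FPKM in these 38 cells and was listed at 0 in all myeloid cells. In this fit it reached the average of 1 FPKM only through matrix cells, so its call has no weight as a test. The count of 3 includes it. This split was chosen after seeing the data, and matrix cells are by their rule high in Col1a1. The part of RNA from matrix cells in the 19 was not tested.

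Other antagonists and modulators were compared in the same way. Of 17 listed, 11 were tested between kinds, and 6 were lower in myeloid than in matrix cells, 0 higher and 5 not past the test (12.6% of all genes were lower). Htra1, a secreted protease, had 737 ± 400 FPKM in matrix captures (SD, n = 7), 370 ± 126 in mural captures (n = 5) and 0.423 to 250 in myeloid captures (myeloid minus matrix -4.37 ± 0.83, SE, limma adjusted p = 0.00443). Smoc2, an extracellular matrix protein, had 18.9 to 171 FPKM in matrix and at most 0.903 in myeloid captures (-5.63 ± 0.92, adjusted p = 0.00182). Fst, Fstl3 and Twsg1, all secreted binders of BMPs or activins, also passed (adjusted p = 0.019, 0.0078 and 0.0347). Against mural cells only Htra1 of the 11 was lower in myeloid cells (-3.43 ± 0.97, adjusted p = 0.0496, where 4.43% of all genes were lower), and 0 of 11 passed between mural and matrix cells.

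Id2, which holds back helix-loop-helix factors and is known in several leukocyte lineages, was listed in 25 of 26 myeloid, 121 of 198 matrix and 17 of 57 mural cells. Myeloid capture means were 1024 FPKM in day 12 capture 2, 965 in day 15 capture 2, and 403 and 612 at day 21. Matrix captures were at 17.4, 37.4 and 142 at day 12, 61.2 and 69.7 at day 15 and 119 and 162 at day 21. Mural captures were at 0.154, 0 and 34.5 at day 12, 11.2 at day 15 and 64.8 at day 21. The myeloid range lay above all matrix and mural captures, and each mural capture was below the matrix cells of the same capture. Of the 17 mural cells with Id2, 10 were among the 19 with Col1a1 of at least 1000. The 3 myeloid cells of the captures with too few of them, which no fit used, had 23.7 to 244 FPKM.

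Myeloid cells exceeded matrix cells by 3.11 ± 0.90 (4 of 4 captures, SE, limma adjusted p = 0.0325) and mural cells by 6.05 ± 1.05 (2 of 2 captures holding both, adjusted p = 0.00339). The first call was lost without day 12 capture 2 (0.112), day 15 capture 2 (0.0885) or day 21 capture 2 (0.0523), when cells were scaled to the same total (0.0595) and when the 4 myeloid cells with high Col1a1 were left out (0.0734, in 3 captures). The second held in all 7 fits that left out a capture, with adjusted p of at most 0.0391. Mural minus matrix was -2.95 ± 0.82 (adjusted p = 0.120). Of the 10 genes, Id2 was the only one with a positive difference in either myeloid comparison when all captures were fitted.

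**Figure D4:**
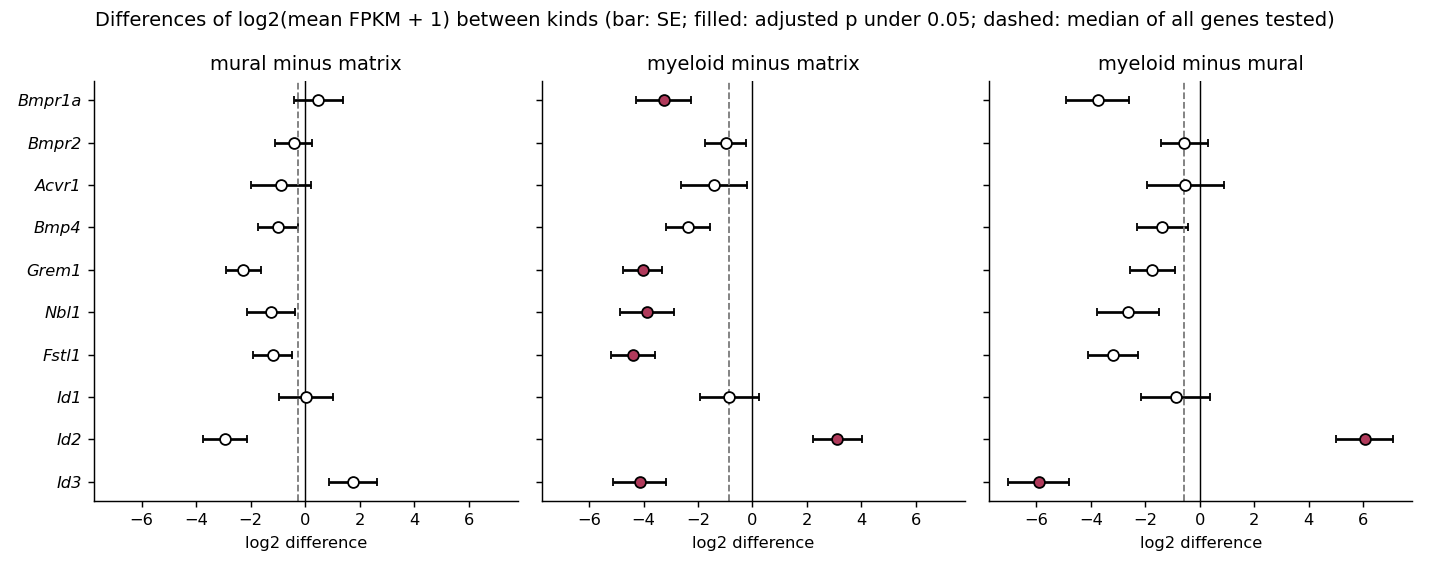
Points give the difference of log2(mean FPKM + 1) between 2 kinds of cell with its SE, filled where the adjusted p was under 0.05, and the dashed line is the median over all genes tested. In both myeloid panels Id2 is the only gene of the 10 to the right of 0, and in the mural panel no point is filled.

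Id3, a close relative of Id2 and Id1, had the reverse order of means. Mural capture means were 25.0, 1161 and 770 FPKM at day 12, 755 at day 15 and 283 at day 21. Matrix captures were at 47.5, 140 and 126 at day 12, 136 and 89.3 at day 15 and 102 and 437 at day 21. Mural cells were above the matrix cells of the same capture in 4 of 5, by 1.46 to 3.04 on the log2 scale, and below them in day 12 capture 1 by 0.90. In that capture Id3 was listed in 3 of 9 mural cells, against 41 of 48 in the other captures together with the single mural cell of day 15 capture 2. The difference over the 5 captures was 1.76 ± 0.88 (SE, limma adjusted p = 0.452), and 1.53 to 2.38 when a capture was left out, which did not pass in any of the 7 fits. Mean Id3 was 840 FPKM (median 508) in the 38 mural cells with Col1a1 under 1000 and 163 (median 47.0) in the other 19. With the 38 alone, a subset chosen after seeing the data, the difference was 2.17 ± 0.93 and did not pass (SE, limma adjusted p = 0.187).

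Myeloid cells were low in Id3, with 49.2 FPKM in day 12 capture 2, 48.9 in day 15 capture 2 and 0.122 and 2.08 at day 21, each below the matrix cells of its capture. The difference was -4.14 ± 0.97 against matrix cells (SE, limma adjusted p = 0.0121) and -5.91 ± 1.12 against mural cells (0.00632). Without day 21 capture 1 neither passed (0.0765 and 0.0668), and without day 21 capture 2 the first did not (0.0554). Neither passed without filters on cells (0.116 and 0.0623) or without a filter on low values (0.0779 and 0.0628). Of the 7 myeloid cells with Id3, 4 were the cells with high Col1a1, and it was listed in 3 of the other 22.

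Id2 and Id3 were thus found together in different shares of the kinds. Among matrix cells 87 had both, 34 Id2 alone, 31 Id3 alone and 46 neither. Among mural cells 16 had both, 1 Id2 alone and 28 Id3 alone. Among myeloid cells 7 had both, 18 Id2 alone and 0 Id3 alone. These counts pool captures and are given without a test.

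**Figure D5:**
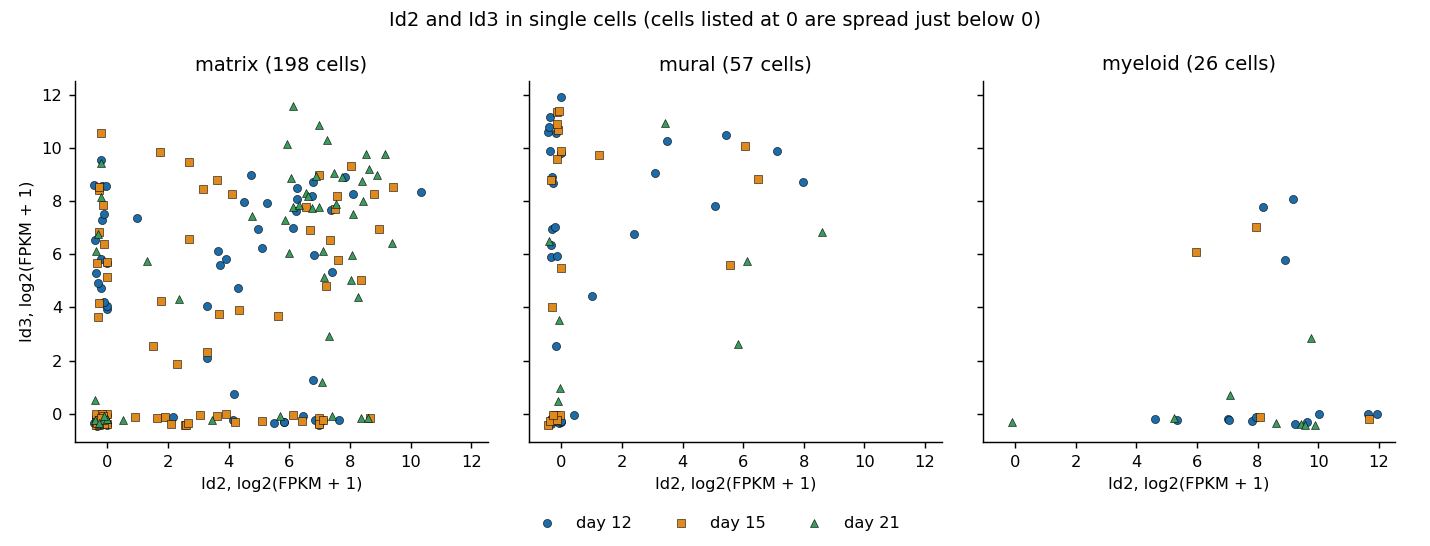
Each point is a cell, with Id2 on the horizontal and Id3 on the vertical axis as log2(FPKM + 1), and cells listed at 0 spread just below 0. Mural cells gather along the Id3 axis, with 28 cells on Id3 alone and 1 on Id2 alone, myeloid cells gather along the Id2 axis, with 18 and 0, and matrix cells fill both axes and the field between.

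Id1 was rare, listed in 18 of 198 matrix, 9 of 57 mural and 1 of 26 myeloid cells. Its capture means were 0 to 25.9 FPKM in matrix and 0 to 42.2 in mural cells and overlapped. Of its 18 matrix cells, 17 had Id2 and 15 had Id3, and of its 9 mural cells, 8 had Id2 and 9 had Id3. Over all cells, Id2 was listed in 121 of 198 matrix and 17 of 57 mural cells. For Id3 these counts were 118 and 44. They pool captures and are given without a test. Id1 passed in no comparison (adjusted p of 0.618 or more between kinds).

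Of 9 further target genes 5 were tested between kinds, and Id4, the fourth Id gene, was the one past the threshold. Id4 was listed in 13 of 57 mural cells, 9 of 198 matrix cells and 0 of 26 myeloid cells. Mural captures were at 0.658, 12.0 and 5.79 FPKM at day 12, 40.9 at day 15 and 106 at day 21, the last from 2 of 8 cells with 1 at 839. Matrix captures were at 0 to 0.775. Id4 reached the average of 1 FPKM needed for the fit only through mural cells, so its call has no weight as a test and its levels are a description. Runx2, a regulator of bone and cartilage cells that was the next most abundant of these targets, did not pass between kinds, with 11.3 ± 6.67 FPKM in matrix captures. The signal transducers Smad1 and Smad4, at 22.4 ± 11.4 and 19.4 ± 21.1 FPKM in matrix captures, did not pass either, nor did any of the 6 transducer genes tested. Of the helix-loop-helix partners of the Id proteins, Tcf4 was listed in 198 of 198 matrix, 56 of 57 mural and 25 of 26 myeloid cells, and Tcf12 was lower in myeloid than in matrix cells (-3.84 ± 0.85, adjusted p = 0.00946).

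Over the whole list of 53 further pathway genes, 38 were tested between kinds. Between mural and matrix cells 1 was higher and 0 lower, with a median difference of -0.61 (0.713% of all genes were higher). Between myeloid and matrix cells 0 were higher and 9 lower (12.6% of all genes were lower), with a median of -1.45, and between myeloid and mural cells 0 were higher and 2 lower (4.43% of all genes), with a median of -1.004. These counts include Id4 and Neo1 and are given as a description, beside medians over all genes of -0.25, -0.85 and -0.58. The comparisons share cells of the same kinds and are not independent of each other.

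Time after wounding was compared within matrix cells of the 7 captures. In 13552 genes tested, 0 passed between days 15 and 12, 1 between days 21 and 12 (0.00738%) and 0 between days 21 and 15, while 791, 968 and 745 had an unadjusted p under 0.05. None of the 10 passed. The design has 2 or 3 captures a day, and a p that misses the threshold does not show that days were alike.

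The values of Id2, Id3 and Grem1 by day are given as a description, since their differences did not pass. Id2 was at 65.6 ± 66.9, 65.4 ± 6.01 and 140 ± 30.1 FPKM at days 12, 15 and 21 (SD, n = 3, 2 and 2 captures), and day 21 minus day 12 was 1.59 ± 0.73 (SE, limma adjusted p = 0.714). It was listed in 48.6%, 61.1% and 78.8% of matrix cells. The day 12 captures alone spanned 22.6% to 82.4%, as wide as all days. Id3 was at 104 ± 49.8, 112 ± 32.7 and 269 ± 236 FPKM, the last from 102 in capture 1 and 437 in capture 2 (1.16 ± 0.66, adjusted p = 0.756, and 0.11 to 2.20 when a capture was left out). Grem1 was at 9.29 ± 4.92, 13.8 ± 3.05 and 20.1 ± 5.57 FPKM (1.11 ± 0.69, adjusted p = 0.774).

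Fstl1 was at 13412 ± 2509, 11369 ± 1256 and 16469 ± 199 FPKM. Both day 21 captures exceeded both day 15 captures, by 0.54 ± 0.21, which did not pass (adjusted p = 0.840, unadjusted p = 0.0287). The other 6 genes had differences between day 21 and day 12 of -0.65 to 1.08, each smaller than its SE. Median fragments of matrix cells were 1642499, 976858 and 2270822 at the 3 days, so the shares listed above 0 were read at different depths.

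In mural cells, the 3 captures of day 12 were compared with day 15 capture 1 and day 21 capture 1. None of the 10 and 0 of 12704 genes passed, with 525 genes at an unadjusted p under 0.05. Id2 had the largest difference of the 10, 3.04 ± 1.72 (SE, limma adjusted p = 0.915), and Bmpr1a followed with 2.04 ± 1.39 (0.915). With the mural cells under 1000 FPKM of Col1a1 alone, the difference of Id2 was 0.79 ± 1.93 (adjusted p = 0.951).

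The 11 cells of no kind were few in each capture, at most 5. In the 5 such cells of day 15 capture 1, Fstl1 had a mean of 5659 FPKM, Bmpr1a 68.8 and Id3 44.5, and Bmp4 and Id1 were listed at 0. Bmpr1a was listed in all 5 of them.

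The genes whose capture means were most like those of each BMP gene were taken from the 6778 genes whose overall mean was 10 FPKM or more, by Pearson's r of log2(mean FPKM + 1) over the 16 means of a capture and a kind. These means share captures and kinds, and r is a description. For Grem1 they were Cped1 (r = 0.975), Sema3a (0.93) and Rab30 (0.913), for Nbl1 Csf1 (0.948), Dnajc10 (0.932) and Plpp1 (0.931), and for Fstl1 Gpx8 (0.975), Mfap2 (0.974) and Serpinf1 (0.97). For Id2 they were Lgals3 (0.877), Pid1 (0.867) and Hacd4 (0.852), and for Id3 Myc (0.918), Emc7 (0.91) and Lamc1 (0.895). For Bmpr1a, Bmpr2 and Acvr1 the first were Psmd9 (0.891), Pmf1 (0.901) and Mpp6 (0.897), and for the sparse Bmp4 and Id1 they were Ppib (0.807) and Cdkn2d (0.801).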

How the data were processed

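Full-length cDNA of single viable tdTomato-high wound cells, captured on Fluidigm C1 chips, was sequenced as paired ends. The deposited values are FPKM, which the authors computed with RSEM and Bowtie 1.0.0 on mm10 with GENCODE annotation. The tables hold no counts. Symbols were matched for 50376 of 50600 gene identifiers. Cell columns are numbered within a capture and name no animal. Day 12 capture 3 was matched to its labels by its number of cells (40), because their description names another capture of that day. The number of identical cell columns was 0.

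The members and gene lists were chosen with earlier results of these data known. The further pathway list holds ligands, receptors, antagonists, transducers, targets and helix-loop-helix partners. Named from it were genes past the threshold and the 2 most abundant per role. The values of 1 gene past the threshold are not reported here, although the list's counts include it. The 3 most alike genes were listed per member (the first only for 5 of them).

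Fragments per cell were estimated from the steps between FPKM values on 9426 single-transcript genes, with an assumed fragment length of 300 bases, and this step was tested on simulated data. Cells were kept with at least 159000 fragments, at most 11000 genes and at most 15% mitochondrial FPKM, which left 292 of 367. Doublets were not called, because per the study's methods chambers with more than 1 cell had been left out.

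FPKM was averaged over the cells of a kind in a capture with at least 3 such cells, and log2(mean + 1) was fitted with limma 3.58.1 (variance trend, R 4.3.3) over genes whose average reached 1 FPKM. All 3 kinds were fitted together with the capture as the block, so the SE of a difference between kinds takes in the spread of all 3. Tests are two-sided, and p was adjusted by Benjamini and Hochberg over all genes at 0.05. Captures are the replicates and cells are not, so p measures the spread between captures. Because a mean over few cells varies widely, the 3 to 11 myeloid cells per capture limit the precision. The fit was tested on simulated data. Captures of the same number did not deviate together between days (correlations of -0.00685 to 0.025), so numbers were not used to pair them. Alternatives were the pseudocount, filters on genes and cells, scaling, the averaging, stricter limits, the block and each capture left out. Subsets of myeloid cells with low Col1a1 and of mural cells with low Col1a1 or no endothelial RNA were added after seeing the data. Python 3.11.15 with pandas 2.3.3, numpy 2.4.6 and scipy 1.17.1 was used. Droplet-based cells of the study were not analysed here.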

Additional observations from a re-analysis of the deposited data

Results flagged for a closer look

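Of 28 sets of captures of 1 gene in 1 kind that varied, 1 had a capture far from the others by Dixon's criterion. Chance marks about 1 in 20 where values are not tied, which does not hold for this set. Id1 was at 8.35 FPKM in the myeloid cells of day 21 capture 1 and listed at 0 in the other 3 myeloid captures. With those 3 at 0, any value above 0 would be marked, so the mark has no weight. The value rests on 1 of the 5 cells, with 41.7 FPKM, and this cell was among the 4 myeloid cells with Col1a1 of at least 1000.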

How the results depend on the processing

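Of the 10 genes, those past the threshold numbered 6 for myeloid minus matrix cells, 2 for myeloid minus mural and 0 for mural minus matrix and each comparison of days, and no called difference changed sign. Leaving out 1 capture gave 2 to 7 genes for myeloid minus matrix (2, Grem1 and Fstl1, without day 21 capture 2, and 3, Grem1, Fstl1 and Id2, without day 21 capture 1), 1 to 3 for myeloid minus mural (1, Id2, without day 21 capture 1) and 0 for the others. Without a filter on low values 1 gene passed for myeloid minus matrix (Grem1) and 1 for myeloid minus mural (Id2). Without filters on cells 5 passed for myeloid minus matrix (Id3 was lost, limma adjusted p = 0.116) and 1 for myeloid minus mural (Id2, with Id3 at adjusted p = 0.0623). With stricter kind limits 1 passed for mural minus matrix (Grem1), and without the replicate block of captures 1 did (Grem1), 7 for myeloid minus matrix and 4 for myeloid minus mural. In subsets chosen after seeing the data, myeloid cells low in Col1a1 gave 5 for myeloid minus mural and mural cells low in Col1a1 gave 3 for mural minus matrix. These 3 include Grem1, whose call in that subset has no weight as a test.

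A pseudocount of 10 gave 4 for myeloid minus matrix, without Bmpr1a (adjusted p = 0.234) and Nbl1 (0.0559). Means of log2 values gave 5 for myeloid minus matrix, without Grem1, and 3 for myeloid minus mural, with Fstl1 added. Scaling cells to the same total moved the median of all genes from -0.855 to -1.05 for myeloid minus matrix, brought in Bmp4 (0.0467) and lost Id2 (0.0595). The causes were not tested. Among all genes, the count past the threshold for mural minus matrix was 147 and ran from 47 (without day 15 capture 1) to 786 (54, 62 and 49 without day 12 captures 1, 2 and 3, 48 without a filter on low values, 488 with means of log2 values, 252 without the replicate block, 786 in mural cells low in Col1a1). For myeloid minus matrix it was 2200 and fell to 1048 with a pseudocount of 10, 1173 without a filter and 1287 or 1340 without day 21 capture 1 or 2. For myeloid minus mural it was 918 and ran from 466 (without day 21 capture 1) to 2031 (without the replicate block), with 488 and 611 without day 12 captures 2 and 3, 497 without a filter, 609 without filters on cells, 530 with a pseudocount of 10, 1378 with means of log2 values and 1488 in myeloid cells low in Col1a1. With means of log2 values 70 genes passed between days 15 and 12 and 89 between days 21 and 12, where 0 and 1 did. A replicate block on the capture number left 0 of the 10 and 0 genes between days 21 and 12. For mural cells over time no paired analysis was possible because the captures shared fewer than 2 numbers. Depth and the few myeloid cells limit the rarest genes, Bmp4 and Id1.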
